A study of Mus musculus with 12 samples.

Results

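The chemokine genes examined here were Ccl3, Ccl4, Ccl5, Ccl17, Ccl22, Cxcl2, Cxcl9, Cxcl10 and Cxcl16, which encode chemokines that dendritic cells (DCs) of the intestine can make. They were chosen by name, and all 9 were found among the 53801 genes counted and among the 20580 genes that had enough counts to be tested. RNA was sequenced from DCs sorted from the small intestine of mice labelled wild type (WT) and of mice labelled Cbfb-cKO (cKO), whose floxed Cbfb gene is removed by a Cre recombinase driven by the CD11c promoter. From each genotype a CD103+CD11b- and a CD103-CD11b+ fraction of CD45+CD64-CD11c+MHC-II+ cells was taken, which gave 4 groups of 3 samples from different mice, all labelled as mixed background. The sample labels name no age, treatment or infection. CD11c-Cre acts in every cell that turns on CD11c and, by the study's own account, also in some T cells, so a difference between the genotypes need not start in the sorted cells themselves. It is not given whether the WT mice of these samples carried Cre.

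Chemokines are small secreted proteins that set up gradients along which cells with the matching receptor move. In the gut, DCs use them to bring T cells, monocytes and neutrophils to the lamina propria and to lymphoid tissue. Cxcl9 and Cxcl10 are induced by interferons and attract T cells and NK cells through Cxcr3. Cxcl2 attracts neutrophils through Cxcr2. Ccl3, Ccl4 and Ccl5 attract monocytes and effector T cells, Ccl3 and Ccl5 in part through Ccr1. Ccl17 and Ccl22 attract regulatory and type 2 helper T cells through Ccr4, and Cxcl16 is made as a membrane-bound ligand of Cxcr6. Cbfβ has no DNA contact of its own and stabilizes the binding of Runx transcription factors to DNA.

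The 12 samples held between 2161929 and 5863484 reads counted on genes, and levels are given in CPM, the counts of a gene scaled to a common total per sample after TMM scaling between samples. Replicates of a group differed by more than sampling noise. Cbfb itself did not separate the genotypes. Its level was 228, 216 and 199 CPM in WT and 221, 215 and 290.2 CPM in cKO CD103+CD11b- DCs. In CD103-CD11b+ DCs it was 184, 161 and 217 CPM in WT and 179.6, 169.6 and 273 CPM in cKO (adjusted p = 0.876 and 0.744). Counts over the whole gene therefore do not check the genotype labels, and the groups are named as labelled. Markers of conventional type 1 DCs separated the subsets as labelled, with 7 of 7 higher in the CD103+CD11b- samples of each genotype. Itgam, which encodes CD11b, was 20.9-fold higher in CD103-CD11b+ DCs of WT mice. Of 5 markers of CD11b+ DCs, Itgam among them, 2 were called higher in CD103-CD11b+ DCs of WT mice and 4 in cKO mice. Cd7, another of these, had the opposite sign in WT mice, averaging 45.8 CPM in CD103+CD11b- and 39.7 CPM in CD103-CD11b+ DCs. In bulk samples such as these, fewer cells of a type and less RNA per cell cannot be told apart.

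Compared per kilobase of exon, the scale on which genes can be set side by side, Ccl4 had the highest mean level of the 9 chemokines over the 12 samples, at 142 CPM per kilobase. Cxcl16 followed at 79.5, Ccl3 at 59.4, Cxcl9 at 55.6, Ccl22 at 52.8 and Ccl5 at 35.6 CPM per kilobase. At the low end, Cxcl10 stood at 27.0, Cxcl2 at 21.9 and Ccl17 at 20.5 CPM per kilobase. For Cxcl2 and Cxcl10 the merged exon models cover the whole gene, introns included, so their values per kilobase are lower than a spliced length would give. The order changed with the subset: Ccl4 was first in 3 of the 4 groups, while Cxcl9 led in cKO CD103+CD11b- DCs at 104 CPM per kilobase, ahead of Ccl4 at 96.5. Cxcl9 was last in WT CD103-CD11b+ DCs at 21.6 CPM per kilobase. Cxcl2 was last in both CD103+CD11b- groups, at 11.7 CPM per kilobase in WT and 3.98 in cKO. Neighbors in this order were often closer than the spread of their replicates, as for Cxcl9 and Ccl22 in WT CD103+CD11b- DCs at 58.4 and 56.9 CPM per kilobase.

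**Figure D1:**
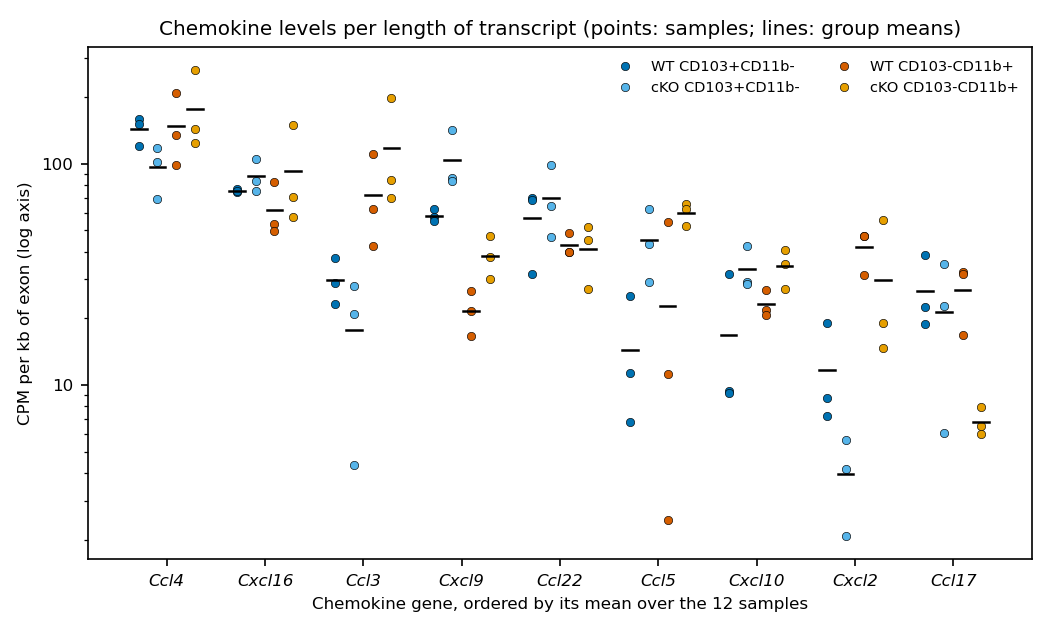
Level of each chemokine gene in CPM per kilobase of merged exon on a log axis, with a point for each of 3 samples per group and a line at the group mean. By group mean Ccl4 is highest in 3 groups, and Cxcl9 is highest in cKO CD103+CD11b- DCs at 104 CPM per kilobase.

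Counting all 9 genes together, their summed level was nearly the same in the 3 WT CD103+CD11b- samples, at 751, 752 and 729.8 CPM. In cKO samples of this subset the sum was 815, 978 and 1080 CPM, above every WT sample. Among single genes, 18.1% of all tested had groups that did not overlap in this comparison. Mean Cxcl9 was 176 CPM in WT and 314 CPM in cKO, while the means of Ccl3, Ccl4, Ccl17 and Cxcl2 were lower in cKO. In CD103-CD11b+ samples the sum ranged from 569 to 803 CPM in WT and from 621 to 1289 CPM in cKO, and there the groups overlapped. Within a group the genes did not vary alike. Over all 12 samples the highest value of Ccl3 was 45.7 times its lowest and that of Cxcl2 was 26.9 times, while for Cxcl16 the ratio was 3.02.

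**Figure D2:**
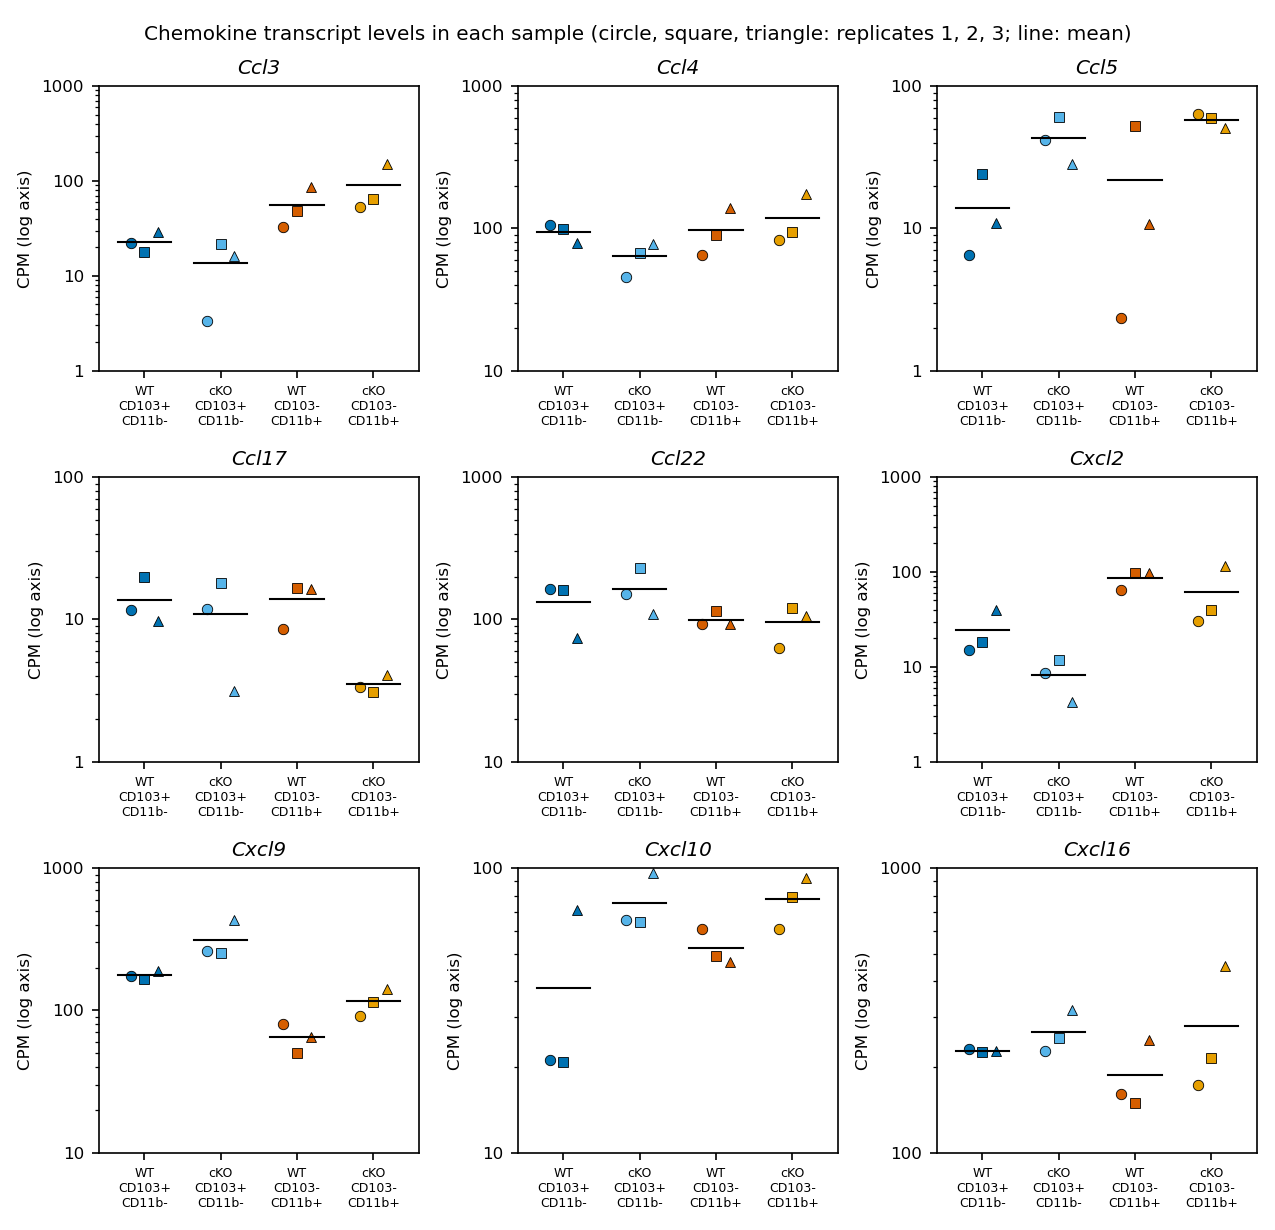
Level in CPM of each of the 9 chemokine genes in every sample (points) on a log axis, with group means as lines, for the 4 groups of 3 samples. Cxcl9 is higher in the cKO samples of both subsets with no overlap, and Ccl17 is low in the 3 cKO CD103-CD11b+ samples at 3.09 to 4.08 CPM.

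Cxcl9 (ENSMUSG00000029417), the chemokine induced by interferon-γ, lies on chromosome 5 from 92321347 to 92328079 on the minus strand of GRCm38. Cxcl9 stood at 173, 166 and 189 CPM in WT and at 260.1, 253 and 429 CPM in cKO CD103+CD11b- DCs. Every cKO sample was above every WT sample. Among CD103-CD11b+ DCs it was lower, with 80.3, 50.3 and 64.9 CPM in WT and 90.9, 114 and 142 CPM in cKO, again without overlap. The mean was 176 ± 11.99 CPM in WT and 314 ± 99.9 CPM in cKO (SD, n = 3) in the first subset, a 1.78-fold difference (log2 0.83, SE 0.24, 95% interval 0.32 to 1.35). Between the CD103-CD11b+ groups the difference was 1.77-fold (log2 0.82, SE 0.24, interval 0.29 to 1.35). Neither passed the threshold, with p from the quasi-likelihood fit of edgeR and adjusted by Benjamini-Hochberg over all genes tested (adjusted p = 0.154 and 0.112). With DESeq2 in its place both passed (adjusted p = 0.0305 and 0.0388), and there 2.93% and 5.08% of all genes were called in the same comparisons. The 2 effects differed by a log2 of -0.01, with an interval from -0.76 to 0.74.

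When the genotype effect was averaged over the subsets, a comparison added after the values had been seen, Cxcl9 was called higher in cKO DCs (log2 0.83, SE 0.17, 1.77-fold, adjusted p = 0.0291). It was 1 of 9 chemokines called in that comparison, where 2.49% of all genes tested were called. The size stayed between 0.68 and 0.94 on the log2 scale when any single sample was left out. The call was lost, at adjusted p between 0.0521 and 0.0820, when replicate 1, 2 or 3 of WT CD103+CD11b-, replicate 2 or 3 of WT CD103-CD11b+ or replicate 2 or 3 of cKO CD103-CD11b+ was left out. Between the subsets the contrast was larger. Cxcl9 was 2.69-fold lower in CD103-CD11b+ than in CD103+CD11b- DCs of WT mice (log2 -1.43, SE 0.24, adjusted p = 0.00353). In cKO mice it was 2.72-fold lower (log2 -1.44, SE 0.24, adjusted p = 0.00203).

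Cxcl10 (ENSMUSG00000034855), an interferon-induced ligand of the same receptor, lies beside it on chromosome 5 from 92346638 to 92348889 on the minus strand. Its level in CD103+CD11b- DCs was 21.2, 20.8 and 71.3 CPM in WT and 65.9, 64.4 and 95.8 CPM in cKO. WT replicate 3 stood apart from the other 2 WT samples and lay within the cKO range. The difference of log2 0.98 (SE 0.41) was not called (adjusted p = 0.424). Without WT replicate 3 it was log2 1.84 and was called (adjusted p = 0.00930), and so was the average over the subsets (log2 1.21, adjusted p = 0.00674). With all samples that average was log2 0.77 and was not called (adjusted p = 0.212, edgeR quasi-likelihood test). Values in CD103-CD11b+ DCs were 60.9, 49.0 and 46.8 CPM in WT and 61.3, 79.2 and 92.3 CPM in cKO. The highest WT and the lowest cKO sample nearly touched, and the log2 difference of 0.56 (SE 0.41) had an adjusted p of 0.503. The subsets were not called different in WT mice (log2 0.45, adjusted p = 0.480) and differed by a log2 of 0.04 in cKO mice. Without WT CD103+CD11b- replicate 3, the WT subset difference was log2 1.26 with an adjusted p of 0.00838. Of the 2252 exon bases of Cxcl10, 133 are shared with Art3 on the other strand, and reads were counted without regard to strand.

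The promoters of these neighbors are shown because their genes respond to the same signals and Cxcl9 differed between the genotypes without overlap in each subset. RefSeq promoters of GRCm38.p6, which run from 250 bases before to 50 bases after the start, were at hand for 6 of the 9 genes, and the 220 bases before the start are printed 5′ to 3′ on the strand of the gene. Capitals mark matches to 4 motifs searched on both strands: TGTGGT for Runx, GGGNNTTTC for NF-kB, GAAANNGAA for an interferon-stimulated response element and TGANTCA for AP-1. The Cxcl9 stretch is chr5:92328080-92328299 and the Cxcl10 stretch chr5:92348890-92349109, both on the minus strand.
Cxcl9: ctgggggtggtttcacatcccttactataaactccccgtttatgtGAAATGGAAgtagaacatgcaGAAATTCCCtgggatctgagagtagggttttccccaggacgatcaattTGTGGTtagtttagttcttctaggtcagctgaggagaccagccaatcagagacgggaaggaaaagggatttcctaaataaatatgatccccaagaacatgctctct
Cxcl10: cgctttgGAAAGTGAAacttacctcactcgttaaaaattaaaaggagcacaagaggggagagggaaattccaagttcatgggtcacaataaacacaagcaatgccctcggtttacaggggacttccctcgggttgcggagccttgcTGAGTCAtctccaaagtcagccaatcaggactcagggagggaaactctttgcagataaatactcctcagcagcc
In Cxcl9 the capitals are, from the left, the interferon element at -175 to -167, the NF-kB motif on the opposite strand at -154 to -146 and the Runx motif at -106 to -101. An AP-1 motif lies past the start at 32 to 38 and is not printed. Cxcl10 held the interferon element at -213 to -205 and the AP-1 motif at -74 to -68, with no match to the Runx or NF-kB letters in its window. Among all 32851 promoters of this length, 16.8% held the Runx letters, 4.36% the NF-kB letters, 8.56% the interferon element and 7.81% the AP-1 letters. These matches are descriptions of the letters and not bound sites.

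Cxcl2 (ENSMUSG00000058427), which attracts neutrophils, lies on chromosome 5 from 90903871 to 90905938 on the plus strand. Its level in CD103+CD11b- DCs was 15.05, 18.1 and 39.3 CPM in WT and 8.65, 11.7 and 4.30 CPM in cKO. All cKO samples were below all WT samples, with counts of 11 to 48 behind the cKO values. The mean was 2.90-fold lower (log2 -1.54, SE 0.56, interval -2.76 to -0.31), which did not pass after adjustment (adjusted p = 0.309, edgeR quasi-likelihood test). Among CD103-CD11b+ DCs the values were 65.0, 97.6 and 97.7 CPM in WT and 30.5, 39.5 and 116 CPM in cKO. There cKO replicate 3 was above every WT sample and the other 2 were below, for a log2 difference of -0.51 (SE 0.51, adjusted p = 0.642). Without that replicate the difference was log2 -1.31 (adjusted p = 0.200) and the average over the subsets was called at log2 -1.42 (adjusted p = 0.0443), against log2 -1.02 and adjusted p = 0.201 with all samples.

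The subset contrast of Cxcl2 ran against that of Cxcl9. Cxcl2 was 3.54-fold higher in CD103-CD11b+ than in CD103+CD11b- DCs of WT mice (log2 1.82, SE 0.53, adjusted p = 0.0352). In cKO mice it was 7.23-fold higher (log2 2.85, SE 0.57, adjusted p = 0.00617). No sample of one subset overlapped the other in either genotype. The WT call depended on single samples and was lost without WT CD103+CD11b- replicate 1 (adjusted p = 0.121) or 2 (0.127), or WT CD103-CD11b+ replicate 2 (0.0863) or 3 (0.0808). The log2 difference in these fits was between 1.59 and 1.70. The cKO call held without any single sample. The difference between these subset contrasts is the same as the difference of the genotype effects, log2 1.03 with an interval from -0.62 to 2.68, and was not called.

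Ccl3 (ENSMUSG00000000982), which draws monocytes and T cells, lies on chromosome 11 from 83647844 to 83649355 on the minus strand. It stood at 22.2, 17.85 and 28.6 CPM in WT and at 3.33, 21.5 and 16.0 CPM in cKO CD103+CD11b- DCs, with 15 counts behind the lowest value. The groups overlapped (log2 -0.77, SE 0.61, adjusted p = 0.790). Its values in CD103-CD11b+ DCs were 32.5, 48.0 and 85.2 CPM in WT and 53.7, 65.0 and 152 CPM in cKO, which overlapped too (log2 0.70, SE 0.57, adjusted p = 0.557). Ccl3 was 6.62-fold higher in CD103-CD11b+ than in CD103+CD11b- DCs of cKO mice (log2 2.73, SE 0.62, interval 1.36 to 4.09, adjusted p = 0.0123). In WT mice the same contrast had no overlap between samples but was not called (log2 1.26, SE 0.58, adjusted p = 0.153). The difference between the contrasts of the genotypes, log2 1.47 with an interval from -0.36 to 3.30, was not called either.

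The promoters of Cxcl2 and Ccl3, the 2 genes called higher in CD103-CD11b+ cKO DCs, are printed in the same way. They are chr5:90903679-90903898 on the plus strand and chr11:83649379-83649598 on the minus strand.
Cxcl2: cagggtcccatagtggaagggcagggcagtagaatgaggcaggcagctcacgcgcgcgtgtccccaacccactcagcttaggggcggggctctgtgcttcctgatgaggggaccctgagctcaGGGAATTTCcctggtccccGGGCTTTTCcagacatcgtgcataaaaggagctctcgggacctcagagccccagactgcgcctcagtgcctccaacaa
Ccl3: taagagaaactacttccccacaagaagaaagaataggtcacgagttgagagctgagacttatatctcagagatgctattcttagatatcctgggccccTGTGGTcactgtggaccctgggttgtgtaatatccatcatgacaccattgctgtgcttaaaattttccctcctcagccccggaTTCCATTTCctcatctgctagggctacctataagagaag
The capitals in Cxcl2 are both NF-kB motifs, at -97 to -89 and -78 to -70. Those in Ccl3 are a Runx motif at -122 to -117 and an interferon element on the opposite strand at -39 to -31. Runx letters were thus in the Cxcl9 and Ccl3 windows, 2 of 6 examined, and not in those of Cxcl2, Cxcl10, Ccl17 and Ccl22. The windows of Ccl17 and Ccl22 held no match to any of the 4 motifs.

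Ccl4 (ENSMUSG00000018930), which draws T cells and monocytes, lies next to Ccl3 on chromosome 11 from 83662584 to 83664683 on the plus strand. It stood at 106, 99.8 and 79.2 CPM in WT and at 45.7, 67.1 and 78.2 CPM in cKO CD103+CD11b- DCs. The highest cKO sample was just below the lowest WT sample (log2 -0.58, SE 0.33, adjusted p = 0.645). For CD103-CD11b+ DCs the values were 65.4, 89.3 and 139 CPM in WT and 82.4, 94.9 and 175 CPM in cKO, and the groups overlapped (log2 0.26, SE 0.33, adjusted p = 0.726). The subsets were level in WT mice (log2 0.04, SE 0.33). In cKO mice the 3 CD103-CD11b+ samples were all above the 3 CD103+CD11b- samples, with a log2 difference of 0.88 (SE 0.33, adjusted p = 0.0974) that did not pass. Unlike for Ccl3, Cxcl2 and Cxcl9, no comparison of Ccl4 passed the threshold.

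Replicate 3 of cKO CD103-CD11b+ had the highest value of all 12 samples for Ccl3, Ccl4, Cxcl2 and Cxcl16. It also had the fewest counts, 2161929, and the highest summed level of 15 immediate early and heat shock genes, 8802 CPM. That sum ranged from 3482 to 3973 CPM in WT and from 3666 to 7095 CPM in cKO CD103+CD11b- DCs. It ranged from 4223 to 6384 CPM in WT CD103-CD11b+ DCs and was 4134 and 5058 CPM in cKO replicates 1 and 2 of this subset. Replicate 3 of cKO CD103-CD11b+ was also highest of the 12 samples in the sums of general DC markers (3962 CPM), NF-kB signaling genes (6462 CPM) and mature DC markers (1707 CPM). Without this replicate Ccl3 stayed called between the cKO subsets (log2 2.14, adjusted p = 0.0331), as did Cxcl2 (log2 2.05, adjusted p = 0.0121). The part of handling of the cells in these levels was not tested.

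Ccl5 (ENSMUSG00000035042), which attracts memory T cells and is also made in quantity by T and NK cells, lies on chromosome 11 from 83525778 to 83530518 on the minus strand. Ccl5 stood at 6.50, 24.25 and 10.8 CPM in WT and at 41.5, 60.3 and 28.2 CPM in cKO CD103+CD11b- DCs. Every cKO sample was above every WT sample, a difference of log2 1.63 (SE 0.81, interval -0.14 to 3.41) that did not pass (adjusted p = 0.540). The CD103-CD11b+ values were 2.35, 52.3 and 10.8 CPM in WT and 63.3, 59.7 and 50.5 CPM in cKO. WT replicate 2 reached the cKO range and the other 2 WT samples were far below it (log2 1.44, SE 0.80, adjusted p = 0.376). Leaving out that replicate gave log2 3.21 (adjusted p = 0.0717), and the average over both subsets then passed at log2 2.43 (adjusted p = 0.0211), against log2 1.54 and adjusted p = 0.201 with all samples.

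T and NK cell markers were therefore set beside Ccl5. Their summed level over 10 genes was 14.4, 17.85 and 71.1 CPM in WT and 5.99, 37.3 and 134 CPM in cKO CD103+CD11b- DCs. It was 13.9, 227 and 46.8 CPM in WT and 215, 72.1 and 48.4 CPM in cKO CD103-CD11b+ DCs. WT CD103-CD11b+ replicate 2, with the highest Ccl5 of its group, thus had the highest marker sum of all samples. In the cKO CD103+CD11b- samples the lowest Ccl5, in replicate 3, went with the highest marker sum, and 41.5 CPM of Ccl5 in replicate 1 went with 5.99 CPM. None of the 10 markers was called in any comparison. Ncr1 was at 0 in 9 samples and Klrb1c in 6, while Cd3e was detected in all 12, at up to 39.0 CPM. The part of T and NK cell RNA in the Ccl5 level was not tested further.

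Ccl17 (ENSMUSG00000031780), a Ccr4 ligand of activated CD11b+ DCs, lies on chromosome 8 from 94810453 to 94812036 on the plus strand. By its mean CPM over the 12 samples, though not in every group, it was the lowest of the 9 genes. Its level in CD103+CD11b- DCs was 11.6, 19.9 and 9.70 CPM in WT and 11.8, 18.1 and 3.13 CPM in cKO, with overlapping groups although cKO replicate 3 was below every WT sample (log2 -0.30, SE 0.51, adjusted p = 0.939). Among CD103-CD11b+ DCs it was 8.61, 16.7 and 16.3 CPM in WT and 3.37, 3.09 and 4.08 CPM in cKO. The 3 cKO samples, with counts of 15, 13 and 8, were all below the WT samples, at 44 to 56 counts. The difference was 3.95-fold (log2 -1.98, SE 0.55, interval -3.20 to -0.76) with an adjusted p of 0.101 by edgeR, while DESeq2 gave an adjusted p of 0.0230. The genotype effects of the subsets differed by log2 -1.68 (interval -3.32 to -0.04), which did not pass adjustment (adjusted p = 0.438). Ccl17 was level between the subsets of WT mice (log2 0.00, SE 0.51). In cKO mice it was lower in CD103-CD11b+ DCs by log2 -1.68 (SE 0.55), short of the threshold (adjusted p = 0.0617). It passed without cKO CD103+CD11b- replicate 3, whose 8 counts were the fewest of its group (log2 -2.09, adjusted p = 0.00974), and also with DESeq2 (adjusted p = 0.0294, where 19.4% of all genes were called) and under both stricter filters on low counts (adjusted p = 0.0461 and 0.0492).

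Ccl22 (ENSMUSG00000031779), the other Ccr4 ligand, lies close by on chromosome 8 from 94745590 to 94751699 on the plus strand. It did not share the pattern of Ccl17. Its level was 163, 159.9 and 73.7 CPM in WT and 151, 229 and 108 CPM in cKO CD103+CD11b- DCs (log2 0.30, SE 0.34, adjusted p = 0.879). In CD103-CD11b+ DCs it was 92.6, 114 and 93.1 CPM in WT and 62.9, 120.4 and 106 CPM in cKO, for a log2 difference of -0.05 (SE 0.35). The groups overlapped in each subset. Between the subsets Ccl22 was not called in WT mice (log2 -0.41, adjusted p = 0.447) or in cKO mice (log2 -0.76, adjusted p = 0.158). Ccl17 and Ccl22 are made chiefly by mature DCs, and the summed level of 8 mature DC markers was 713 to 1033 CPM in WT and 1089 to 1452 CPM in cKO CD103+CD11b- DCs. In CD103-CD11b+ DCs it was 569 to 1051 CPM in WT and 1026 to 1707 CPM in cKO. None of the 8 was called by genotype.

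Cxcl16 (ENSMUSG00000018920), the ligand of Cxcr6 on effector T cells and innate lymphoid cells, lies on chromosome 11 from 70453983 to 70459984 on the minus strand. By its mean CPM over the 12 samples, though not in every group, it was the highest of the 9 genes. It was steady at 232, 226 and 228 CPM in WT and stood at 227, 252 and 317 CPM in cKO CD103+CD11b- DCs (log2 0.22, SE 0.32, adjusted p = 0.922). Among CD103-CD11b+ DCs it was 161, 149.6 and 249 CPM in WT and 173, 214 and 452 CPM in cKO (log2 0.58, SE 0.32, adjusted p = 0.370). The groups overlapped in both subsets. Without cKO replicate 3 the second difference was log2 0.05. The subsets did not differ by the test in either genotype, with log2 differences of -0.29 in WT and 0.07 in cKO. Cxcl16 shares 552 of its 3021 exon bases with Zmynd15 on the other strand.

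Read across the 9 genes, the comparison of genotypes in CD103+CD11b- DCs called 0 of them, where 1.02% of all genes tested were called, and 3 had an unadjusted p under 0.05 (Cxcl2, Cxcl9 and Cxcl10), as did 10.5% of all genes. Non-overlapping groups were seen for 4 of 9, Ccl5 and Cxcl9 higher and Ccl4 and Cxcl2 lower in cKO, where 18.1% of all genes had groups that did not overlap. Their median log2 difference was 0.22, against -0.02 over all genes. In CD103-CD11b+ DCs 0 of 9 were called against 1.61% of all genes, and 2 had an unadjusted p under 0.05 (Ccl17 and Cxcl9), near the 17.4% of all genes that did. Here 3 of 9 did not overlap, Cxcl9 and Cxcl10 higher and Ccl17 lower, against 20.1% of all genes, and the median was 0.56 against -0.06. DESeq2 called 1 of 9 in the first subset (Cxcl9) and 2 of 9 in the second (Cxcl9 and Ccl17), against its own 2.93% and 5.08% of all genes. The test of the difference between the 2 genotype effects called 0 of 9 against 0.651% of all genes, with an unadjusted p under 0.05 for Ccl17 alone among the 9, near the 11.1% of all genes. Since the genotype effects were tested in the same 4 groups as the subset contrasts, these comparisons share samples.

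**Figure D3:**
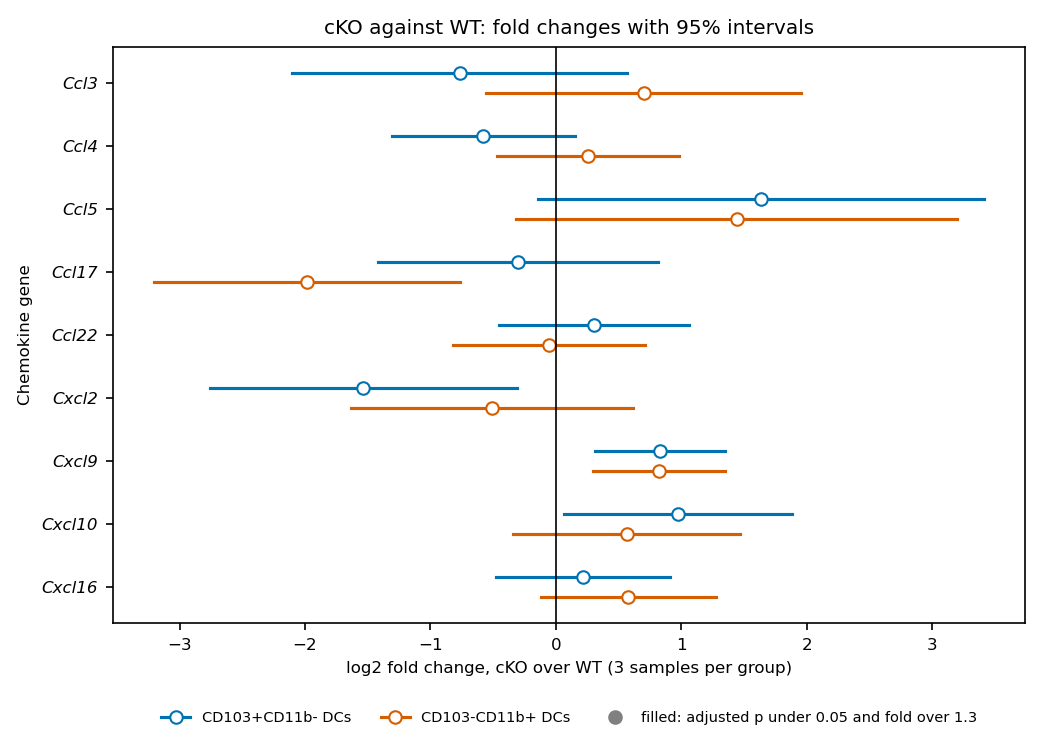
Log2 difference of cKO from WT for the 9 chemokine genes in each DC subset, with the 95% interval from edgeR as bars. Cxcl9 lies at 0.83 and 0.82 with intervals above 0, Ccl17 at -1.98 in CD103-CD11b+ DCs, and no value passed after adjustment over all genes.

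Between subsets 2 of 9 were called in WT mice, Cxcl2 higher and Cxcl9 lower in CD103-CD11b+ DCs, where 18.8% of all genes were called. In cKO mice 3 of 9 were called, with Ccl3 and Cxcl2 higher and Cxcl9 lower, against 16.1% of all genes. Samples of the subsets did not overlap for 3 of 9 in WT mice (Ccl3, Cxcl2 and Cxcl9), against 38.1% of all genes, and for 4 of 9 in cKO mice (Ccl4 in addition), against 34.0%. The WT shares are near those of all genes. The median log2 difference of the 9 genes was 0.04 in WT and 0.07 in cKO mice, against 0.07 and 0.11 over all genes.

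**Figure D4:**
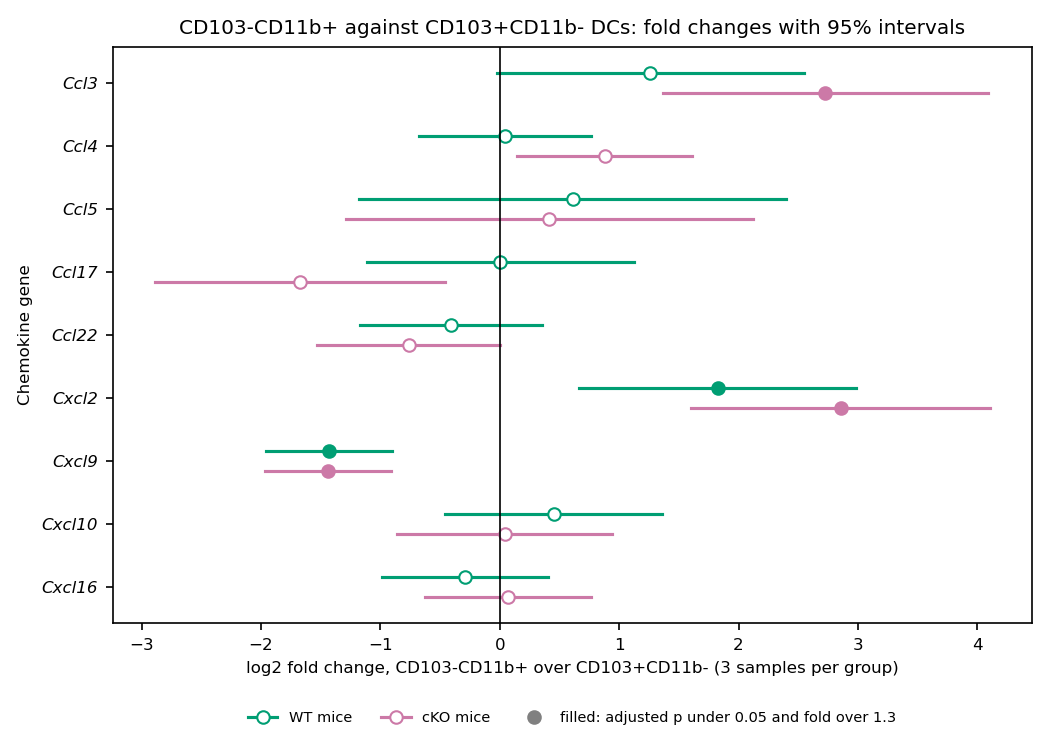
Log2 difference of CD103-CD11b+ from CD103+CD11b- DCs for the 9 chemokine genes in WT and cKO mice, with the 95% interval from edgeR as bars. Cxcl2 (1.82 and 2.85) and Cxcl9 (-1.43 and -1.44) were called in both genotypes and Ccl3 (2.73) in cKO mice.

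Of 28 other chemokine ligands, 19 had enough counts to be tested, and Ccl1, Ccl19 and Cxcl15 were at 0 in all 12 samples. Ccl2, which attracts monocytes through Ccr2, was the only ligand of this list called by genotype, higher in cKO CD103+CD11b- DCs. It had 3, 2 and 0 counts in the WT samples and 19, 45 and 25 in the cKO samples, or at most 1.03 CPM against 4.22 to 11.0 CPM (log2 4.26, SE 0.81, adjusted p = 0.0388). In CD103-CD11b+ DCs Ccl2 stood at 12.1 to 37.8 CPM in WT and 11.5 to 21.7 CPM in cKO, and 0 of the 19 ligands were called. Between the subsets 5 ligands were higher in CD103-CD11b+ DCs of WT mice, among them Ccl2, Ccl6, Ccl9 and Cx3cl1, and 1, Ccl25, was lower. In cKO mice Ccl6 and Ccl9 were higher and none was lower. Ccl9 was at 12.1 to 81.3 CPM in WT and 4.27 to 24.0 CPM in cKO CD103-CD11b+ DCs and had at most 5 counts in any CD103+CD11b- sample. The difference of the genotype effects was called for none of these ligands, Ccl2 included (adjusted p = 0.0630).

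Receptors that bind the 9 chemokines were also expressed by the DCs. Ccr1, the receptor of Ccl3 and Ccl5, stood at 93.7, 70.7 and 69.5 CPM in WT and at 5.99, 2.20 and 1.17 CPM in cKO CD103+CD11b- DCs. It was 23.0-fold lower in cKO (log2 -4.53, SE 0.51, adjusted p = 0.00375), the 1 gene called of 9 receptors and scavengers tested. Its values in CD103-CD11b+ DCs were 162.5, 128 and 155 CPM in WT and 93.6, 124 and 268 CPM in cKO, which overlapped (log2 0.12, SE 0.40, adjusted p = 0.911). The difference between these effects was called (log2 4.64, SE 0.64, adjusted p = 0.0130). Cxcr3, the receptor of Cxcl9 and Cxcl10, was like Cxcl9 the lower one in CD103-CD11b+ DCs. It was at 47.1 to 65.4 CPM in WT CD103+CD11b- and 0.582 to 6.996 CPM in WT CD103-CD11b+ DCs (log2 -3.79, SE 0.57, adjusted p = 0.00205). In cKO mice it was lower in CD103-CD11b+ DCs by log2 -2.32 (adjusted p = 0.0110). Cxcr2, the receptor of Cxcl2, was higher in CD103-CD11b+ DCs of both genotypes (log2 4.09 and 2.56), and Ccr1 (log2 5.57) was higher there in cKO mice. Of 3 proteases that cut these chemokines none was called by genotype or between the WT subsets, and Adam10, which sheds Cxcl16 from the cell surface, was higher in CD103-CD11b+ DCs of cKO mice (log2 0.57, adjusted p = 0.0433).

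Signaling genes upstream of the chemokines were counted from lists fixed with the members. Among 13 interferon signaling genes the genotypes gave 0 calls in CD103+CD11b- DCs. Between the subsets 1 interferon gene was higher and 5 were lower in CD103-CD11b+ DCs of WT mice, and 0 and 5 in cKO mice, the lower ones including Irf8 (log2 -2.20 and -2.13), Ifnar1 and Tyk2 in both. Of 12 NF-kB signaling genes 0 were called by genotype, while 3 were higher and 1 was lower in CD103-CD11b+ DCs of each genotype. Tnfaip3, an NF-kB target that restrains the pathway, was higher in both (log2 1.04 and 1.46), as Cxcl2 was.

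Of 8 IL-4 and GM-CSF signaling genes, which act on Ccl17 and Ccl22, 1 was called in CD103+CD11b- DCs. Irf4, a transcription factor of CD11b+ DCs, fell from 209, 141 and 188 CPM in WT to 37.3, 54.2 and 66.1 CPM in cKO (log2 -1.78, SE 0.30, adjusted p = 0.0241). No gene of this list was called by genotype in CD103-CD11b+ DCs, where Ccl17 was lowest and Irf4 stood at 280.2 to 396 CPM in WT and 229 to 495 CPM in cKO. Between subsets Il2rg was higher in CD103-CD11b+ DCs of both genotypes, and Irf4 in cKO mice. The 15 immediate early and heat shock genes, which move with handling as well as with activation, had 1 call by genotype in CD103+CD11b- DCs (Egr2, log2 1.59), 0 in CD103-CD11b+ DCs, 2 between WT subsets (Ier3 and Ier2 higher) and 0 between cKO subsets. Mature DC markers had 2 calls between WT subsets, Socs2 higher and Cacnb3 lower, and 0 between cKO subsets.

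Markers of other cells moved with some of these comparisons. In cKO CD103+CD11b- DCs, 3 of 5 CD11b+ DC markers were called lower (Sirpa, Cd209a and Cd7), and the sum of the 5 was 203 to 469 CPM in WT and 26.2 to 88.5 CPM in cKO. Itgam, another of the 5, had the opposite sign, at 3.66 to 4.79 CPM in WT and 5.99 to 11.0 CPM in cKO without overlap, and was not called (log2 0.92, adjusted p = 0.239). Their sum in CD103-CD11b+ DCs was 616 to 709 CPM in WT and 758 to 1108 CPM in cKO, with 0 called. The low Cxcl2, Ccl4, Ccr1 and Irf4 values of the cKO CD103+CD11b- DCs thus stood in the same samples as low Sirpa, Cd209a and Cd7, and the part of CD11b+ DCs in those differences was not tested. Conventional type 1 DC markers summed to 2528 to 3366 CPM in WT and 3525 to 4223 CPM in cKO CD103+CD11b- DCs, with 0 of 7 called, beside the Cxcl9 difference. Against 437 to 625 CPM in WT, they summed to 361 to 671 CPM in cKO CD103-CD11b+ DCs, where Itgae alone was called, lower. Of 10 macrophage markers 8 were higher in CD103-CD11b+ DCs of each genotype, with sums of 44.8 to 87.5 CPM in WT CD103+CD11b- and 378 to 727 CPM in WT CD103-CD11b+ DCs. In cKO mice the sums were 15.6 to 73.7 CPM and 495 to 777 CPM. By genotype 0 of 10 were called in CD103+CD11b- DCs, and Adgre1 alone was called in CD103-CD11b+ DCs, higher in cKO. Fcgr1, which encodes the CD64 that the sort excluded, was at 0 in 3 samples and reached 11.7 CPM. The part of macrophage RNA in the higher Cxcl2 and Ccl3 of CD103-CD11b+ DCs was not tested.

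**Figure D5:**
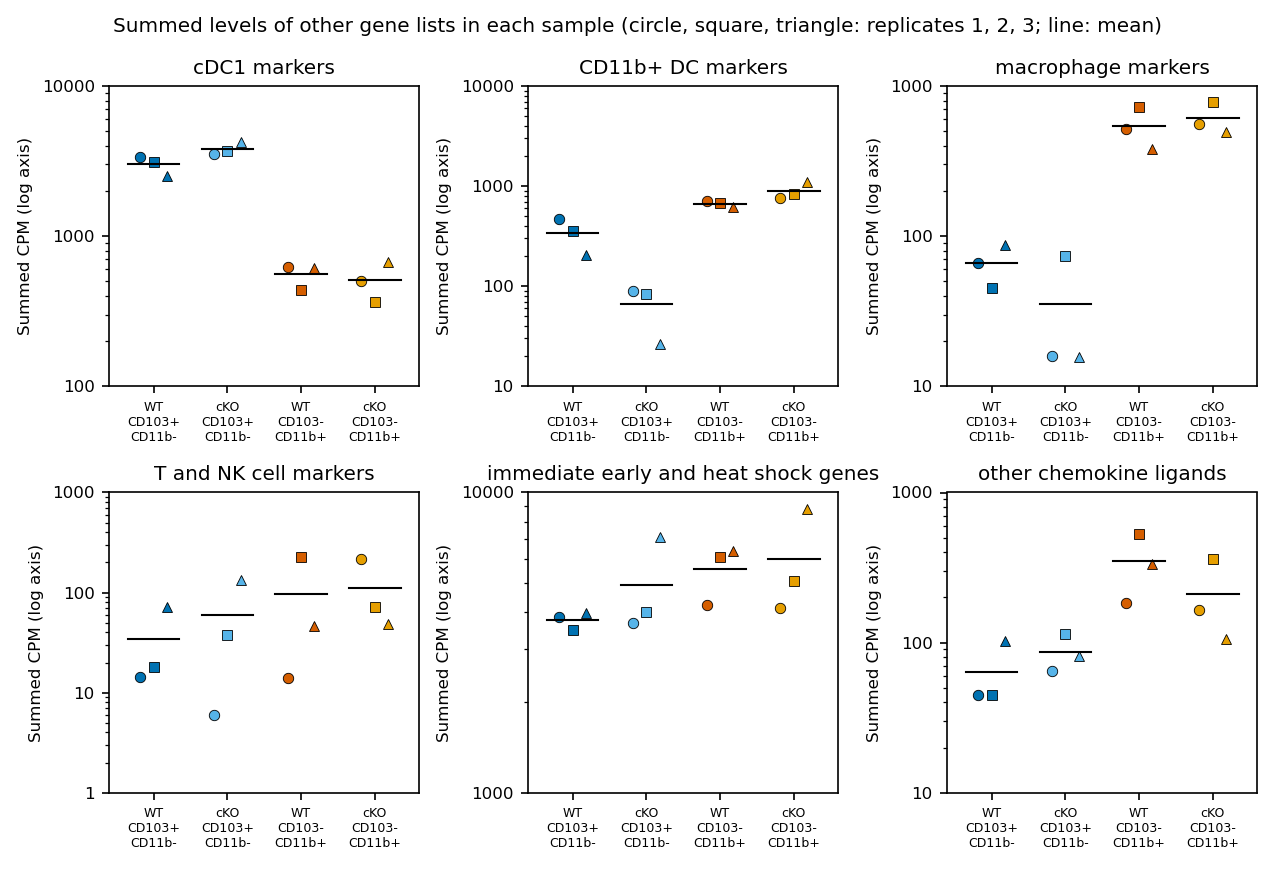
Summed level in CPM of 4 marker lists, the immediate early and heat shock genes and the other chemokine ligands in every sample (points) of the 4 groups on a log axis, with lines at the group means. The summed CD11b+ DC markers are lower in cKO than in WT CD103+CD11b- DCs (26.2 to 88.5 against 203 to 469 CPM), and macrophage markers are higher in CD103-CD11b+ DCs of each genotype.

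Of 6 granulocyte and mast cell markers tested, only Csf3r was called, higher in cKO than in WT CD103-CD11b+ DCs and higher in CD103-CD11b+ DCs of each genotype, while Fcer1a was at 0 in all 12 samples and S100a8 and S100a9 were at 0 in 7. Among 7 B cell markers Ms4a1 was higher in cKO CD103-CD11b+ DCs (log2 3.72, adjusted p = 0.00455), Ighm was lower in CD103-CD11b+ DCs of WT mice, and Cd79a, Cd79b and Ms4a1 were higher there in cKO mice. Epithelial markers had 0 of 7 called by genotype and between cKO subsets, and Krt8, Krt18 and Vil1 were higher in WT CD103-CD11b+ DCs. Their sums were nevertheless lower in cKO CD103-CD11b+ DCs, at 30.5 to 70.9 CPM against 168 to 312 CPM in WT, where all 7 had a negative log2 difference (median -2.45), 5 of them without overlap. In CD103+CD11b- DCs the sums overlapped, at 76.6 to 223 CPM in WT and 14.5 to 94.9 CPM in cKO, and the signs were mixed, with 5 of 7 positive (median 2.15) and Vil1 and Fabp2 higher in cKO without overlap. Cdh1 made up most of the sum, with means of 150.2 and 25.5 CPM in WT and cKO CD103+CD11b- DCs (adjusted p = 0.106) and 155 and 34.2 CPM in CD103-CD11b+ DCs (adjusted p = 0.105). The part of epithelial RNA in the chemokine differences was not tested. Of 5 general DC markers none was called by genotype, and Flt3 was lower in CD103-CD11b+ DCs of both genotypes.

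Likeness among the 9 genes was measured as the root mean square difference of log2 CPM, each gene centered on its own mean over the 12 samples. Ccl4 and Cxcl16 were the closest pair at 0.455, and Cxcl2 and Cxcl9 the farthest at 2.20. Ccl3 and Cxcl2 differed by 0.876 and Cxcl9 and Cxcl10 by 0.999. Among 12644 genes with a mean of at least 5 CPM, the gene nearest to Cxcl9 was Tspan33 (0.251), with Rab32 next (0.258). Stat4 was nearest to Ccl3 (0.338), followed by Ccrl2 (0.489), an atypical chemokine receptor. The nearest genes were Sik1 and Irf2bp2 for Ccl4 (0.182 and 0.240), Etf1 and Spag9 for Cxcl16 (0.146 and 0.147) and Smox and Gm37675 for Cxcl2 (0.486 and 0.509). They were Gm43029 and Stx6 for Ccl22 (0.297 and 0.299), Gm48207 and Gm45220 for Cxcl10 (0.327 and 0.345) and Nacc2 and Prodh for Ccl17 (0.513 and 0.516). Ccl5 had no close partner, with Rragd at 0.839 and Plcb4 at 0.866. These values describe 12 samples in 4 groups and carry no test.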

How the data were processed

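RNA of sorted intestinal DCs was amplified and sequenced by the authors, who trimmed the reads (Trim Galore), aligned them to mm10 with STAR 2.7, removed low-quality alignments and duplicates, and counted reads per Ensembl gene of GRCm38 with HTSeq, ignoring strand. The authors deposited raw counts per gene and sample, with 5 summary lines that were left out here. Between 32.7% and 38.8% of the reads counted per sample fell on genes, 59.7% to 66.1% on no feature and 1.21% to 1.52% were ambiguous.

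All 12 samples were fitted in one model of the 4 groups with the quasi-likelihood test of edgeR 4.0.16 (R 4.3.3, limma 3.58.1), with TMM scaling, after leaving out genes that stayed below 5 counts in every sample. A gene was called at a Benjamini-Hochberg adjusted p under 0.05 and a fold over 1.3. The fit was also run on simulated counts, in which genes of like level shared a common spread. That setting lacks the gene-specific spread and the outlying replicates of these data, and its outcome is not reported here. The 9 chemokines and the gene lists were chosen with earlier results of these data known. Every chemokine was described in every comparison. From the other lists, up to 4 called genes with the smallest p were named, and the nearest genes were the 2 with the smallest difference. Some list genes outside this rule (Irf4 and Ccl9 in groups without a call, Itgam, Cdh1, Vil1 and Fabp2 by genotype, Ncr1, Klrb1c, Cd3e, Fcgr1, Fcer1a, S100a8 and S100a9) were named after their values were seen, and results of some other list genes are not reported here. Same-numbered samples of the cKO subsets deviated together (r = 0.112, 0.321 and 0.354), so their numbers were taken to pair them. The main fit did not use this pairing, which entered only in the alternative with a replicate block. Alternatives were DESeq2 1.42.0, other scaling, filters and limits, a replicate block, the 6 compared samples alone and leaving out each sample. P-values rest on the spread between the 3 samples of a group, estimated over all 4 groups together and moderated with information from all genes tested. Gene positions and exon lengths come from the GENCODE annotation of GRCm38 and promoters from RefSeq. Figures were drawn with Python 3.11.15 and matplotlib 3.10.9.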

Additional observations from a re-analysis of the deposited data

Results flagged for a closer look

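Ccr1, the receptor of Ccl3 and Ccl5, was lower in cKO than in WT CD103+CD11b- DCs (3.12 against 78.0 CPM on average) and was not called in CD103-CD11b+ DCs (148 and 162 CPM). It stands here because the effect of the cKO differed between the subsets by the test of that difference (log2 4.64, SE 0.64, adjusted p = 0.0130, edgeR quasi-likelihood test), with all 3 cKO samples below all 3 WT samples in the first subset and overlapping samples in the second. In the same cKO CD103+CD11b- samples 3 of 5 markers of CD11b+ DCs (Sirpa, Cd209a and Cd7) were lower too, while Itgam, also among the 5, was not called and had the opposite sign (log2 0.92, adjusted p = 0.239). The part of CD11b+ DCs in the Ccr1 difference was not tested.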

How the results depend on the processing

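Of 800 alternative values for single chemokines, 740 kept their direction and their side of the threshold, 14 lost it, 12 gained it and 34 changed sign. For the genotypes in CD103+CD11b- DCs DESeq2 called 1 of 9 chemokines in place of 0, and leaving out a sample gave 0 to 1. In CD103-CD11b+ DCs DESeq2 called 2 in place of 0. Between WT subsets the number went from 2 to 1 at an adjusted p under 0.01 and from 1 to 3 with a sample left out, and between cKO subsets from 3 to 2 at that limit, where Ccl3 was lost (adjusted p = 0.0123), and from 3 to 4 with a sample left out. Averaged over the subsets it went from 1 to 0 at that limit and from 0 to 1 with a sample left out. The causes were not tested.

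On the log2 scale, with a sample left out the ranges were, by genotype, -0.85 to 0.12 for Ccl17 and -0.026 to 0.52 for Ccl22 in CD103+CD11b- DCs, and -0.14 to 0.62 for Ccl4 and -0.23 to 0.20 for Ccl22 in CD103-CD11b+ DCs. For the difference of the effects they were -0.85 to 1.57 for Ccl5, -0.18 to 0.28 for Cxcl9 and -0.16 to 0.63 for Cxcl16. Between WT subsets they were -0.34 to 0.22 for Ccl4, -1.19 to 1.23 for Ccl5 and -0.26 to 0.33 for Ccl17, and between cKO subsets -0.098 to 0.25 for Cxcl10 and -0.45 to 0.28 for Cxcl16. Stricter filtering turned Ccl17 between WT subsets to -0.027, and the 6 cKO samples alone turned Cxcl10 to -0.012.

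With the replicate block the difference of the effects became 0.29 for Ccl5 and 0.036 for Cxcl9, Ccl4 between WT subsets -0.0087 and Cxcl16 between cKO subsets -0.040. The block changed no other sign and no chemokine's call, with 0, 0, 0, 2 and 3 called in the 5 comparisons. Except between the cKO subsets, numbers were not taken to pair samples, because not every same-numbered pair deviated together. Between WT subsets r was 0.357, -0.085 and 0.352. Between genotypes it ran from -0.091 to 0.132 in CD103+CD11b- and from 0.020 to 0.422 in CD103-CD11b+ DCs. In 8 of 12 matchings of a sample with another group, some samples entering more than once, the best partner had its own number.

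Counts over all genes moved more: by genotype from 210 (41 to 604) in CD103+CD11b- and 331 (29 to 1045) in CD103-CD11b+ DCs, for the difference from 134 (19 to 452), between subsets from 3860 (1115 to 5196) in WT and 3307 (1636 to 4427) in cKO mice, and averaged from 512 (126 to 1073). The block alone gave 522, 849, 328, 5196, 4427 and 976. Low counts limit Ccl17, Cxcl2, Ccl5 and Ccl3, at 8, 11, 12 and 15 in their lowest samples.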
